A study of Mus musculus with 6 samples.

Results

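Steroid hormone receptors are kept ready to bind hormone by a group of chaperones, and the genes described here encode that machinery. They are Hsp90aa1 and Hsp90ab1 (the HSP90 chaperones), Hspa8 (the constitutive HSP70), Hspa4 and Hsph1 (nucleotide exchange factors of HSP70), Dnajb1 (an HSP40 co-chaperone), Stip1 (the HOP adaptor), Ptges3 (the p23 co-chaperone) and the immunophilins Fkbp4 and Fkbp5. All probe sets that the platform annotation gives to 1 of these genes alone were taken, by current symbol or alias, whatever their values. This gave 24 of 45037 probe sets and covered 8 of the 10 genes. The annotation used here lists no probe set for Hsp90ab1 alone, and those listed with Ptges3 also name its pseudogene Ptges3-ps, so neither gene has a value here.

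In the maturation cycle of a steroid receptor, HSP40 and HSP70 first bind the newly made receptor, HOP bridges HSP70 to HSP90, and HSP90 together with p23 and an immunophilin holds the receptor in the state that binds hormone with high affinity. FKBP4 (FKBP52) enhances signaling by the progesterone, androgen and glucocorticoid receptors, whereas FKBP5 (FKBP51) lowers the hormone affinity of the glucocorticoid receptor and is itself induced by glucocorticoids and progestins. In the uterus, progesterone acting through its receptor PGR prepares the tissue for implantation.

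RNA of whole uteri collected from pregnant females at 3.5 dpc was hybridised to mouse expression arrays, with 3 arrays from Arid1a f/f and 3 from Arid1a d/d mice. The Arid1a f/f females carried floxed Arid1a alleles without Cre. The Arid1a d/d females carried the same floxed alleles and Pgr cre/+, so that Arid1a, a subunit gene of the SWI/SNF chromatin remodeling complex, was deleted in PGR-expressing cells and other cells of the uterus kept it. The Pgr locus therefore also differed between the genotypes, and no array came from mice with Cre alone, so the 2 differences cannot be told apart. The sources used here do not give the age of these females. Nothing in the labels ties a sample to a mouse of its own, so the p-values cover only the spread between these arrays, which may be technical. Values are normalized intensities on a linear scale, with a median over all probe sets and arrays of 3.12. Differences are Arid1a d/d minus Arid1a f/f on the log2 scale, from limma, with p adjusted by Benjamini-Hochberg across the whole array. A gene is represented by its brightest probe set, chosen without regard to genotype, and a gene rose or fell where the adjusted p was under 0.05. Arid1a itself differed by -0.76 (standard error 0.12, adjusted p = 0.0120, limma), and all 8 uterus markers, including Pgr, Hoxa10 and Msx1, had means above the median intensity in both genotypes.

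Of the 8 measured genes, Hsp90aa1 alone rose and none fell. Among all 18193 genes, 3.37% rose and 4.06% fell. In whole uteri, fewer cells of a type and less RNA per cell cannot be told apart. The difference was positive in 7 of the 8 genes, all but Fkbp5, against 8451 of 18193 genes overall. Its median was 0.36 over the 8 genes, with a range of -0.72 to 0.80, and -0.02 over all genes. In 5 of the 8 genes every Arid1a d/d array was above every Arid1a f/f array (Hsp90aa1, Stip1, Hsph1, Fkbp4 and Hspa4), and in Fkbp5 every Arid1a d/d array was below. Over all genes, 13.4% did not overlap in the higher and 16% in the lower direction. At an unadjusted p under 0.05, 5 of the 8 genes were higher and 1 was lower, beside 11.4% and 13.5% of all genes. The methods' t-test at the same unadjusted threshold found 3 higher and 0 lower, beside 9.51% and 10.6% of all genes, and after adjustment it called 0 of these and 0 of all 18193 genes.

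**Figure D1:**
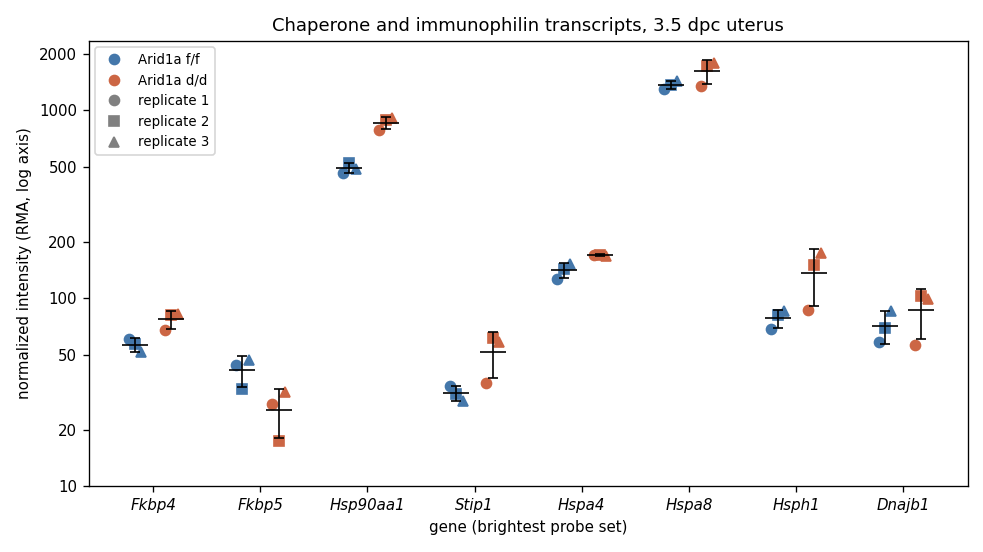
Normalized intensity (log axis) of the brightest probe set of each of the 8 measured genes on each array, Arid1a f/f and Arid1a d/d, with 1 point per array shaped by replicate number and a black bar and error bar at the mean ± SD (n = 3). Fkbp5 is the gene whose Arid1a d/d arrays all lie lower, while Hspa8 and Dnajb1 overlap between the genotypes.

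HSP90 is the chaperone that holds the receptor at the end of the cycle. Hsp90aa1, which encodes its stress-inducible alpha form, (probe set 1438902_a_at) had intensities of 467, 526 and 487 on the Arid1a f/f arrays and 785, 885 and 909 on the Arid1a d/d arrays. The lowest Arid1a d/d array was well above the highest Arid1a f/f array. The means were 493 ± 29.8 and 859.6 ± 65.5 (SD, n = 3 each), a log2 difference of 0.80 (standard error 0.10, adjusted p = 0.00648, limma), which is 1.74-fold. The call held without each of the 6 arrays in turn, with a difference of 0.76 to 0.86.

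Of the 5 probe sets of Hsp90aa1, 3 rose. The second, 1426645_at, read 87.3, 96.4 and 68.9 in Arid1a f/f and 144, 164 and 143 in Arid1a d/d mice, a log2 difference of 0.85 (standard error 0.14, adjusted p = 0.0143, limma), and its call also held without each array. The third, 1437497_a_at, read 112, 126 and 58.3 in Arid1a f/f and 282, 362 and 216 in Arid1a d/d mice. Its log2 difference of 1.58 (standard error 0.29, adjusted p = 0.0210, limma) is larger than that of the brightest probe set. The Arid1a f/f arrays were uneven in this probe set, and its call was lost on leaving out replicate 1 of Arid1a f/f or replicate 1 or 2 of Arid1a d/d. The remaining 2 probe sets were dimmer than the median of all intensities, with differences of 0.41 (adjusted p = 0.0522) and 0.01 (adjusted p = 0.986, limma). Over all 24 probe sets of the machinery, 4 rose and 0 fell, beside 2.42% and 2.35% of all probe sets, and the fourth was a probe set of Hspa8. In 11 of the 24 every Arid1a d/d array was higher and in 2 every one was lower, beside 11% and 11.5% of all probe sets.

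**Figure D2:**
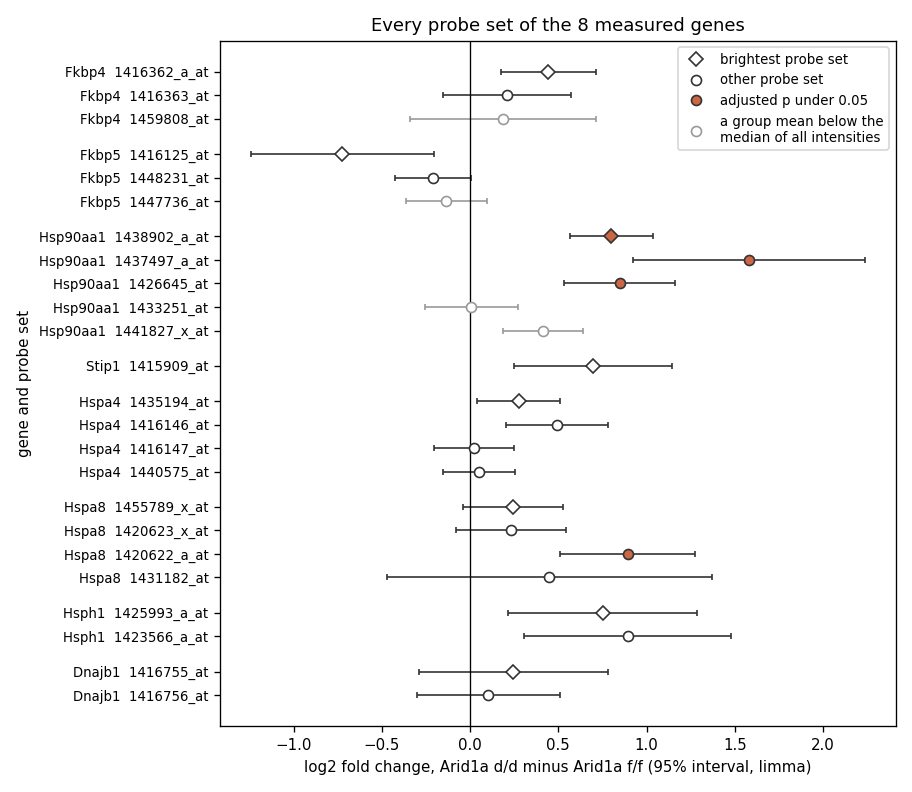
Log2 fold change (Arid1a d/d minus Arid1a f/f) with its 95% interval from limma for all 24 probe sets, grouped by gene, with diamonds for the brightest probe set of a gene, filled marks past the adjusted threshold and grey marks where a group mean was below the median of all intensities. The 4 filled marks belong to Hsp90aa1 (3) and Hspa8 (1), and the 3 probe sets of Fkbp5 lie below 0.

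Stip1 encodes HOP, the adaptor that passes the receptor from HSP70 to HSP90. Its 1 probe set read 34.0, 31.0 and 28.5 in Arid1a f/f mice and 35.6, 61.3 and 58.7 in Arid1a d/d mice. Arid1a d/d replicate 1 lay just above the Arid1a f/f arrays, and the other Arid1a d/d arrays stood far above them. The log2 difference of 0.70 (standard error 0.20) did not pass the test (adjusted p = 0.0902, limma). Without Arid1a d/d replicate 1 it was 0.95 (adjusted p = 0.0123, limma).

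The HSP70 system acts first on the receptor. Hspa8 read 1295, 1372 and 1428 in Arid1a f/f mice and 1357, 1727 and 1795 in Arid1a d/d mice on its brightest probe set. The genotypes overlapped through Arid1a d/d replicate 1, and the log2 difference of 0.24 (standard error 0.13) missed the threshold (adjusted p = 0.360, limma). A dimmer probe set of Hspa8, 1420622_a_at, read 201, 289 and 260 in Arid1a f/f and 377, 496 and 519 in Arid1a d/d mice and rose by 0.89 on the log2 scale (standard error 0.17, adjusted p = 0.0232, limma). Among the fits without 1 array, that call held only without Arid1a d/d replicate 1. The brightest probe set of Hspa8 carries the suffix _x_at, which marks probes that can bind other transcripts, and so does another one, whose difference was 0.23 (adjusted p = 0.432, limma). A last Hspa8 probe set differed by 0.45 (adjusted p = 0.646, limma). The Hspa8 probe sets thus shared a sign and differed in size, and the value given for this gene depends on which one is taken.

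Hsph1 (HSP105) and Hspa4 (APG-2) belong to the HSP110 family, which releases ADP from HSP70. Hsph1 read 69.0, 81.0 and 85.2 in Arid1a f/f mice and 86.5, 150.0 and 175 in Arid1a d/d mice. As in Stip1, Arid1a d/d replicate 1 lay just above the Arid1a f/f arrays. The log2 difference of 0.75 (standard error 0.23) missed the threshold with all arrays (adjusted p = 0.120) and passed it without Arid1a d/d replicate 1 (1.05, adjusted p = 0.0132, limma). The other Hsph1 probe set read 17.04, 20.2 and 17.5 against 21.04, 39.1 and 46.8, with a difference of 0.89 (adjusted p = 0.0940, limma).

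Hspa4 read 127, 143 and 153 in Arid1a f/f mice and 171, 171 and 168 in Arid1a d/d mice. The Arid1a d/d arrays were nearly equal (170.1 ± 1.61, SD, n = 3) and all above the Arid1a f/f arrays, but the log2 difference of 0.28 (standard error 0.10) missed the threshold (adjusted p = 0.193, limma). A second Hspa4 probe set read 100.1, 98.3 and 84.1 against 122.9, 153 and 121.7, a difference of 0.49 (adjusted p = 0.0669, limma). Of its other 2 probe sets, 1416147_at had means of 73.7 and 74.9 with overlap and differed by 0.02 (adjusted p = 0.942, limma). The last had means of 3.48 and 3.61, near the median of all intensities, and differed by 0.05.

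Dnajb1, whose J-domain protein delivers clients to HSP70, read 58.3, 69.4 and 86.0 in Arid1a f/f mice and 56.5, 103 and 98.8 in Arid1a d/d mice. The lowest of all 6 values was Arid1a d/d replicate 1, and the genotypes overlapped. The log2 difference was 0.24 (95% interval -0.29 to 0.78, adjusted p = 0.673, limma), and it ran from 0.09 to 0.52 over the fits without 1 array. On its second probe set the difference was 0.10 (adjusted p = 0.840, limma).

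The immunophilins bind HSP90 through the same kind of TPR domain and compete for it. Fkbp4 read 61.1, 57.5 and 51.8 in Arid1a f/f mice and 67.7, 81.5 and 82.9 in Arid1a d/d mice. The genotypes did not overlap, and the log2 difference of 0.44 (standard error 0.12) missed the threshold (adjusted p = 0.0738, limma). Without Arid1a d/d replicate 1 it was 0.54 and just passed (adjusted p = 0.0498, limma). Its other probe sets differed by 0.21 (adjusted p = 0.570) and, below the median of all intensities, by 0.19 (adjusted p = 0.758, limma).

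Fkbp5 ran the other way. Its brightest probe set read 44.3, 32.8 and 47.3 in Arid1a f/f mice and 27.6, 17.3 and 31.9 in Arid1a d/d mice, with Arid1a d/d replicate 2 the lowest. The highest Arid1a d/d array lay just below the lowest Arid1a f/f array. The log2 difference of -0.72 (standard error 0.23) missed the threshold (adjusted p = 0.122, limma) and was -0.47 without Arid1a d/d replicate 2. A dimmer probe set, close to the median of all intensities (3.12), read 3.56, 3.63 and 3.87 against 3.18, 3.31 and 3.07, again without overlap. Its difference was -0.21 (adjusted p = 0.278, limma). The last, below the median of all intensities, differed by -0.13 (adjusted p = 0.562, limma).

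Since both immunophilins were read on the same arrays, their ratio was taken within each array. The log2 ratio of Fkbp4 to Fkbp5 was 0.46, 0.81 and 0.13 on the Arid1a f/f arrays and 1.30, 2.23 and 1.38 on the Arid1a d/d arrays. Every Arid1a d/d ratio was above every Arid1a f/f ratio, a difference of 1.17 on the log2 scale (exact permutation p = 0.1, two-sided, the smallest p that 3 against 3 arrays allow). This separation follows from the genes taken singly, since their brightest probe sets did not overlap and had opposite signs. With the mean of all probe sets of each gene the difference was 0.64, again without overlap (exact permutation p = 0.1). With this number of arrays the test cannot pass a threshold of 0.05, and a ratio does not say which gene of the pair differs.

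The promoter sequences of this pair are printed because the immunophilins had differences of opposite sign, together with the stretch of Hsph1 that holds the only long heat shock element found. They are RefSeq windows of GRCm38.p6, on the minus strand in all 3 genes, written 5′ to 3′ in the direction of transcription. The capitals mark heat shock element units, read as GAANNTTC or TTCNNGAA. For Fkbp4 and Fkbp5 the 250 bases before the start of the gene are shown (chr6:128438657-128438906 and chr17:28486150-28486399), and for Hsph1 30 bases just inside the gene (chr5:149636287-149636316).
Fkbp4: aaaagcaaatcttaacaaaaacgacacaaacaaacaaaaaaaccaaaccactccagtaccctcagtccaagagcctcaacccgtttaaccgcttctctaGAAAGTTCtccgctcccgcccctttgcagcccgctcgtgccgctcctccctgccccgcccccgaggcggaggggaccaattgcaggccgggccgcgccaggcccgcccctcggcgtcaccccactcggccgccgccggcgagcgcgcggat
Fkbp5: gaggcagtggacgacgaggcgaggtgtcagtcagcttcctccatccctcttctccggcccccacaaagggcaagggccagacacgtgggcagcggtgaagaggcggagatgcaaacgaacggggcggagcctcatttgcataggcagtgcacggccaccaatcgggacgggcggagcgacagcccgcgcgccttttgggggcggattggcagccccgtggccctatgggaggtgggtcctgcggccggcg
Hsph1: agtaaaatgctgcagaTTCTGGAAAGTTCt

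Windows of 300 bases, 250 before and 50 after a start, were listed for 7 of the 10 genes (Fkbp4, Fkbp5, Ptges3, Stip1, Hspa4, Hsph1 and Dnajb1). On either strand, GAANNTTC or TTCNNGAA was found in the windows of 2 of the 7 genes, Fkbp4 and Hsph1, and in 15.1% of all 32851 windows. A gene was counted here if any of its listed windows matched, whereas the shares are of single windows. In Fkbp4 the unit begins 151 bases before the start. The element of alternating triplets GAA, TTC and GAA, or TTC, GAA and TTC, with 2 bases between neighbours (overlapping units of both kinds), was found in Hsph1 alone of the 7 and in 0.603% of all windows. The palindromic steroid receptor element, GNACA and TGTNC with 3 bases between them, was in none of the 7 and in 0.475% of all windows, which says only that these letters are not in these windows.

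The Arid1a d/d arrays differed among themselves. Arid1a d/d replicate 1 was the lowest of the 3 in 6 of the 8 genes, all but Fkbp5 and Hspa4. Its median deviation from the Arid1a f/f mean was 0.17 on the log2 scale, beside 0.54 and 0.52 in Arid1a d/d replicates 2 and 3. Without it, 4 of the 8 genes rose (Hsp90aa1, Stip1, Hsph1 and Fkbp4), and without any other array only Hsp90aa1 did. Over all 18193 genes, 556 rose without this array and 139 to 321 without any other, beside 613 with all arrays. Arid1a d/d replicate 1 was also the lowest of the 3 in 14 of 14 proliferation markers, 11 of 13 epithelial markers and 12 of 17 other HSP90 co-chaperones. It was the lowest in 0 of 15 steroid-induced genes, 0 of 12 stromal fibroblast, 1 of 12 smooth muscle and 2 of 12 endothelial markers, and the highest in 10 of the 12 smooth muscle markers. Whether what set this array apart bears on the member genes was not tested.

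The rest of the chaperone system was counted in 6 lists, of which 80 of 85 genes were measured. Of these 9 rose (11.3%) and 1 fell (1.25%), with a median difference of 0.15. All genes gave 3.37% and 4.06%, shares that also stand beside the counts of each list below. Among the other HSP90 co-chaperones none of 17 rose or fell in limma, and the median was -0.02, close to that of all genes. With the mean of all probe sets of a gene, 1 rose and 1 fell. On leaving out Arid1a d/d replicate 1, 1 rose and 0 fell. At an unadjusted p under 0.05, 2 of the 17 were higher and 1 was lower, near or below the shares of all genes at that threshold (11.4% and 13.5%). The smallest p was that of Fkbpl, a TPR protein of the FKBP family, which read 6.46 ± 0.09 (SD, n = 3) in Arid1a f/f and 4.997 ± 0.15 (SD, n = 3) on the Arid1a d/d arrays without overlap (-0.37, adjusted p = 0.0536, limma).

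Among 21 other genes of the cytosolic HSP70 system 3 rose and 0 fell, with a median of 0.07. Hspa1b, an inducible HSP70, read 179 ± 12.5 in Arid1a f/f and 314 ± 55.5 in Arid1a d/d mice (SD, n = 3 each), a difference of 0.80 (standard error 0.14, adjusted p = 0.0177, limma). Hspa1a encodes a nearly identical RNA and its probe set differed by 0.00 (adjusted p = 0.995), so which of the pair these probes read is uncertain. Hspa4l, another HSP110 gene, had means of 4.41 and 6.47 (0.55, adjusted p = 0.0177, limma), and 0.28 as the mean of all its probe sets, which did not pass (adjusted p = 0.193). Bag2, a co-chaperone of HSP70, had means of 29.7 and 40.7 (0.46, adjusted p = 0.0387, limma). Hspa1b and Hspa4l held their calls without Arid1a d/d replicate 1 or 2 and lost them without any of the other 4 arrays, and Bag2 lost its call without any 1 array.

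Of 9 other FKBP genes, Fkbp3 rose and none fell, with a list median of -0.03. Fkbp3, a nuclear FKBP, read 79.8, 87.4 and 96.0 in Arid1a f/f mice and 154, 149 and 179 in Arid1a d/d mice. Its difference of 0.87 (standard error 0.12, adjusted p = 0.00727, limma) held without each array in turn, at 0.79 to 0.94.

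The cytosolic chaperonin CCT folds actin and tubulin, which prefoldin brings to it. Of 14 CCT and prefoldin genes 4 rose and 0 fell, beside 3.37% and 4.06% of all genes, and 13 differences were positive. All 14 genes did not overlap between the genotypes, 13 higher and 1 lower in Arid1a d/d mice. Over all genes, 13.4% did not overlap in the higher and 16% in the lower direction. The median was 0.26. The count that rose was 1 on leaving out any Arid1a f/f array or replicate 2 of Arid1a d/d, and 2 on leaving out replicate 3 of Arid1a d/d. Calls became fewer over all genes too, where 613 rose with all arrays and 139 to 556 with 1 left out. Cct6a read 306, 311 and 325 in Arid1a f/f and 480.3, 555 and 549.8 in Arid1a d/d mice (0.75, standard error 0.10, adjusted p = 0.00757, limma) and passed without each array. Pfdn1, a prefoldin subunit, had means of 41.2 and 64.5 (0.64, adjusted p = 0.0232), and Cct8 had means of 172 and 236 (0.46, adjusted p = 0.0416, limma). Pfdn1 held its call only without Arid1a d/d replicate 1 or 3, Cct8 only without Arid1a d/d replicate 1. As the mean of all its probe sets Cct8 differed by 0.15 and did not pass. The other CCT gene that rose was Cct3 (0.46, adjusted p = 0.0462, limma), named after its value was seen.

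Among 11 chaperones of mitochondria and endoplasmic reticulum 1 rose and 0 fell, with a median of 0.30. Hspd1, the mitochondrial HSP60, had means of 337 and 499 (0.57, standard error 0.12, adjusted p = 0.0310, limma), and of the fits without 1 array passed only in that without Arid1a d/d replicate 1. Among 8 heat shock factors and small heat shock proteins 0 rose and 1 fell, with a median of 0.11. Hspb6 (HSP20), a small heat shock protein of muscle, read 49.8, 30.8 and 26.7 in Arid1a f/f and 15.6, 11.5 and 9.08 in Arid1a d/d mice (-1.55, standard error 0.25, adjusted p = 0.0144, limma), and this call was lost on leaving out replicate 2 of Arid1a f/f.

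**Figure D3:**
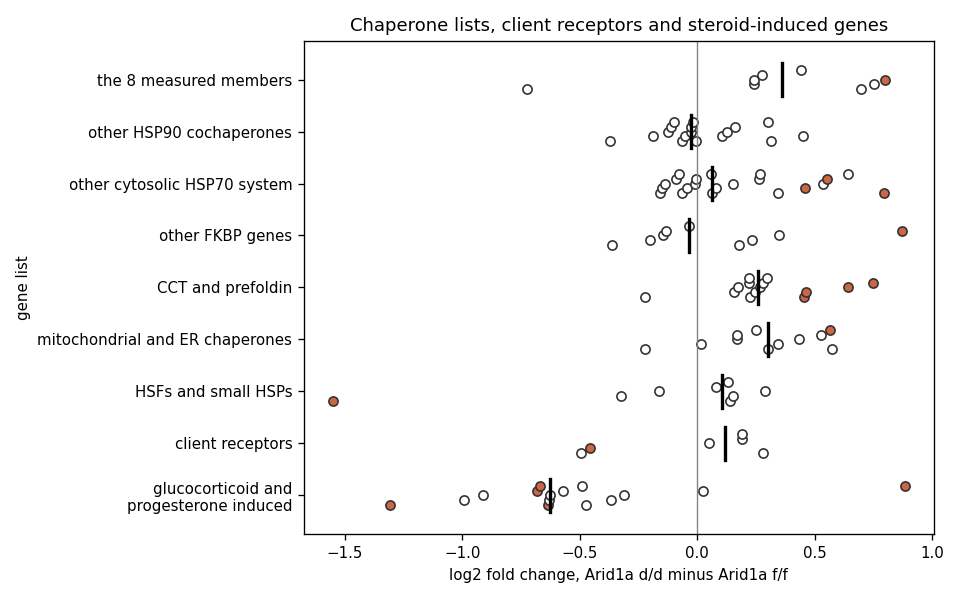
Log2 fold change (Arid1a d/d minus Arid1a f/f) of each measured gene in the 8 genes and 8 further lists, with 1 point per gene, filled where it passed the adjusted threshold, and a bar at the list median. The CCT and prefoldin genes lie mostly above 0 (median 0.26), and the glucocorticoid and progesterone induced genes mostly below (median -0.63).

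Of the receptors that this machinery serves, 6 of 7 were measured. Esr1, the estrogen receptor, read 638, 715 and 707 in Arid1a f/f and 529.6, 514 and 461 in Arid1a d/d mice on its brightest probe set (-0.45, standard error 0.10, adjusted p = 0.0441, limma). It was the 1 receptor past the threshold, its call was lost without any 1 array and under median centring, and as the mean of all its probe sets the difference was 0.09, with the sign turned (adjusted p = 0.772). Pgr read 216, 297 and 219 in Arid1a f/f and 319.8, 269 and 293 in Arid1a d/d mice, with overlap (0.28, adjusted p = 0.346, limma), and the Arid1a d/d mice carry Cre in 1 Pgr allele. Ahr, whose aryl hydrocarbon receptor also rests on HSP90, had means of 54.6 and 38.6 without overlap (-0.50, adjusted p = 0.0791, limma). The glucocorticoid receptor gene Nr3c1 differed by 0.05 (95% interval -0.18 to 0.28), the mineralocorticoid receptor gene Nr3c2 by 0.19 (adjusted p = 0.352) and Esr2, whose means were below the median of all intensities, by 0.19 (adjusted p = 0.629, limma).

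Activated receptors induce target genes, and 15 genes known to be induced by glucocorticoids or progesterone were counted. Of these 1 rose and 4 fell, beside 3.37% and 4.06% of all genes. In 13 the difference was negative, and the median was -0.63. The count that fell was 1 on leaving out replicate 1 or 2 of Arid1a f/f or replicate 2 of Arid1a d/d, and 2 on leaving out replicate 3 of Arid1a f/f. Over all genes, 738 fell with all arrays and 245 to 615 with 1 left out. Cebpd, a transcription factor gene, read 80.1, 130.0 and 127 in Arid1a f/f and 50.7, 42.7 and 40.5 in Arid1a d/d mice (-1.31, standard error 0.19, adjusted p = 0.00974, limma), and passed without each array. Dusp1, which encodes a MAP kinase phosphatase, had means of 62.7 and 39.8 (-0.67, adjusted p = 0.0262, limma) and of the fits without 1 array passed only in that without Arid1a d/d replicate 1. Sgk1, a kinase gene, went the other way, with means of 52.2 and 97.6 (0.89, standard error 0.14, adjusted p = 0.0139, limma), and its call was lost on leaving out replicate 2 or 3 of Arid1a f/f. The other genes that fell were Pdk4 (-0.68, adjusted p = 0.0329) and Cdkn1c (-0.63, adjusted p = 0.0331, limma), named after their values were seen. Fkbp5, itself such a gene, had the same sign as the list's median but did not pass the threshold. Arid1a d/d replicate 2 was the lowest of the 3 Arid1a d/d arrays in 11 of the 15 genes, as it was in Fkbp5. That array was also the lowest in 9 of 12 endothelial, 9 of 12 smooth muscle and 7 of 12 stromal fibroblast markers. It was the lowest in 0 of 13 epithelial and 0 of 14 proliferation markers. Whether receptor activity, or what set this array apart, bears on Fkbp5 was not tested.

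**Figure D4:**
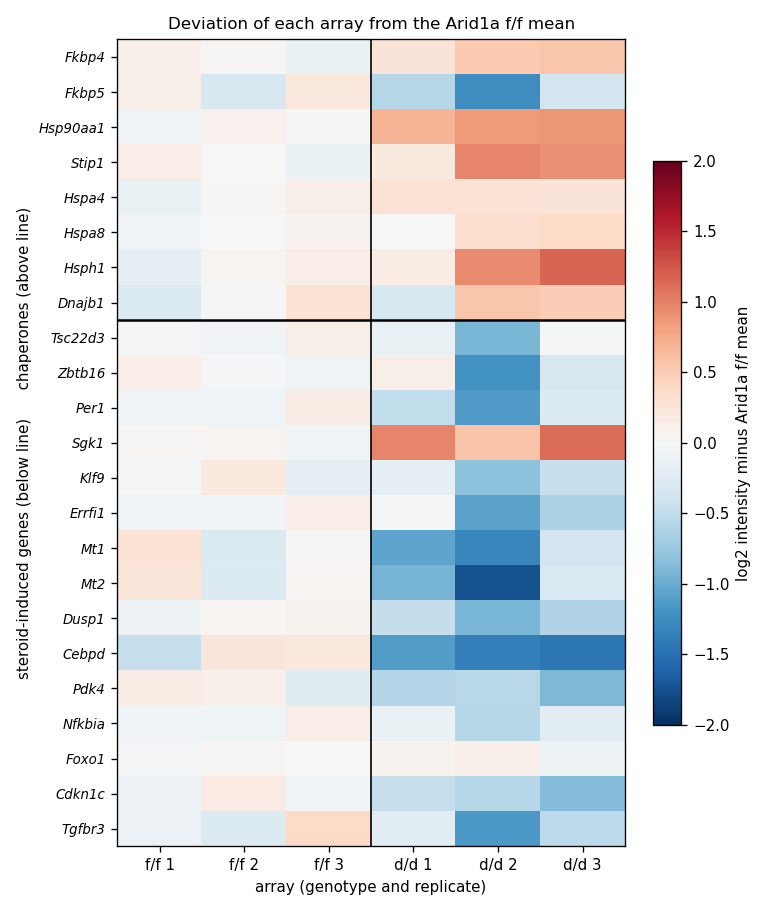
Deviation of the log2 intensity of each array from the Arid1a f/f mean (colour scale, red higher and blue lower), with the 8 chaperone and immunophilin genes above the line and 15 steroid-induced genes below it. Arid1a d/d replicate 1 is paler than the other Arid1a d/d arrays in most of the 8 genes (median deviation 0.17 against 0.54 and 0.52), and Fkbp5 is bluest in Arid1a d/d replicate 2.

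Whole uteri hold several cell types, whose markers were counted on the same arrays. Among 14 proliferation markers 11 rose and 0 fell, with a summed intensity of 693 to 1077 in Arid1a f/f and 1364 to 1707 in Arid1a d/d mice. The count that rose was 13 on leaving out replicate 1 of Arid1a f/f and 1 on leaving out replicate 2 or 3 of it. It was 9 on leaving out replicate 1 of Arid1a d/d and 4 on leaving out replicate 2 or 3 of Arid1a d/d. Of 13 epithelial markers 2 rose and 0 fell (summed intensity 1178 to 1262 and 1247 to 2502), with a count of 0 on leaving out replicate 2 of Arid1a f/f, 1 on leaving out replicate 1 or 3 of it, and 3 on leaving out replicate 2 of Arid1a d/d. Of 12 endothelial markers 0 rose and 11 fell (590 to 613 and 264 to 322), or 5 to 9 with 1 array left out. Of 12 stromal fibroblast markers 0 rose and 2 fell (11204 to 12399 and 8889 to 10557), or 0 to 2 with 1 array left out. Of 14 leukocyte markers 0 rose and 3 fell (445 to 588 and 306 to 363), or 0 to 2 with 1 array left out. Of 12 smooth muscle markers 0 rose and 1 fell (10405 to 11932 and 9639 to 11471), which became 2 on leaving out replicate 1 of Arid1a d/d and 0 on leaving out any other array. Over all genes, 139 to 556 rose and 245 to 615 fell with 1 array left out, beside 613 and 738 (3.37% and 4.06%) with all arrays. A genotype mean lay below the median of all intensities in 3 of the 14 leukocyte and 1 of the 13 epithelial markers, and in none of the other markers counted here. Their part in the differences of the chaperone and immunophilin genes was not tested.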

How the data were processed

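Arrays of 6 uterine RNA samples, 3 per genotype, were used as deposited. By their methods, the authors applied RMA and global scaling and filtered genes by fold change. No RMA version is named in the submitters' processing notes. The methods scale every array to a common trimmed mean. The deposited intensity values were linear, from 1.29 to 4479, and their means after trimming 2% from each tail, 16.4 to 17.2, lay well below the target that the methods name. How this table came to that scale is not stated in the sources used here. Log2 was taken and no probe set was left out as dim. Without detection calls, low values cannot be told from background. The small number of arrays limits the precision.

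Genes were assigned from the platform annotation, with symbols updated to GRCm38.p6: 34945 name 1 gene, 932 several and 9160 none here. Each probe set was fitted on genotype by lmFit and eBayes of limma 3.58.1 (R 4.3.3), with two-sided p adjusted by Benjamini-Hochberg across the array, and the fit was tested on simulated data. The log2 ratio of Fkbp4 to Fkbp5 was compared by an exact permutation test. The paired ratio of Hsp90aa1 and Hsp90ab1 could not be formed. The members, lists and rules were chosen with earlier results of these data known. Named were all 10 members with every probe set, every measured client receptor and Arid1a. In each chaperone or steroid list, the 3 genes of smallest p past the test were named, or 1 where none passed. Marker lists are given by counts and sums, with examples. Promoter windows came from RefSeq (GRCm38.p6), where 7 of the 10 genes matched. Alternatives were quantile normalization, median centring, a filter on the dimmest 40% of probe sets, array weights, eBayes with trend and robust options, a replicate block, the methods' t-test, other probe sets per gene, other thresholds and leaving out each array.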

Additional observations from a re-analysis of the deposited data

How the results depend on the processing

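No member gene changed sign under any alternative run. The 1 member gene that rose became 3 at an adjusted p under 0.1, 2 when probe sets with the suffix _s_at or _x_at were left out (Hspa8 passed, at 0.89), 0 by the methods' t-test, and 1 to 4 without each array in turn. Over all 18193 genes, 613 rose with all arrays and 139 to 556 with 1 array left out. Without each array, the 4 member probe sets that rose became 2 to 7 (2 without replicate 1 of Arid1a f/f or 2 of Arid1a d/d, 7 without replicate 1 of Arid1a d/d), the 9 genes of the 6 other chaperone lists that rose became 2 to 12, and the 1 that fell became 0 to 1. With eBayes trend and robust options 14 genes of those lists rose, and with the mean of all probe sets of a gene 2 fell. Esr1 had the opposite sign as the mean of its probe sets, at 0.09, and the cause was not tested. By the methods' t-test, an alternative added for these counts after the data were seen, 0 member probe sets and 0 genes of the other chaperone lists passed in either direction after adjustment.

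The deviations of same-numbered arrays correlated at -0.00, 0.05 and 0.14, and those of unlike-numbered arrays at -0.12 to 0.06. These few values do not settle whether the replicate numbers pair the samples. With the replicate number as a block, 2 member genes rose (Hsp90aa1 and Hsph1), 1 fell (Fkbp5), 1 member probe set fell and 5 genes of the other chaperone lists rose.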
